A study of Mus musculus with 6 samples.

Results

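A set of 10 genes of cellular iron uptake and iron sensing was followed through 6 RNA-seq libraries of macrophages and leukemia cells from mice with and without iron overload. The genes were taken by name without a filter on their values, though earlier results of these data were known when they were chosen. They are 10 of the 54532 genes in the files: the transferrin receptors Tfrc and Tfr2, the metal transporters Slc11a1 and Slc11a2, the reductase Steap3, the iron regulatory proteins Aco1 and Ireb2, the iron sensor Fbxl5, the ferritinophagy receptor Ncoa4 and the mitochondrial importer Slc25a37. Each of the 10 had at least 27 reads in every library, so none was lost to a filter.

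The libraries were made from sorted cells of C57BL/6 mice, 1 library per condition. Macrophages came from WT mice (no leukemia, injected with PBS), WT/FE mice (no leukemia, injected with iron dextran), MA9 mice (leukemia and PBS) and MA9/FE mice (leukemia and iron dextran). Leukemia cells came from MA9 and MA9/FE mice. Iron dextran, a complex of iron and sugar, was given intraperitoneally 6 times, every other day, as 0.2 mL at 25 mg/mL, from a week after the transplantation in leukemic mice. The study's methods give the mice as 6 to 8 weeks old. The leukemia was made by infecting c-kit+ BM cells with a retrovirus that carries MLL-AF9 and GFP, and GFP+ leukemia cells of such mice were then transplanted, so the recipients share 1 retroviral model without a human patient's other mutations. The macrophage gate in the methods was GFP-, Gr-1 low, F4/80+, CD115 intermediate. For the macrophages the labels say spleen while the methods say BM, a conflict that is left unsettled here. The leukemia cells are labelled as BM. If the labels hold, cell type and tissue cannot be told apart in any comparison of leukemia cells with macrophages.

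Iron circulates bound to transferrin, which enters cells through the transferrin receptor. In the acid endosome a STEAP reductase reduces the released iron and a divalent metal transporter carries it to the cytosol, from where mitoferrin takes part of it into mitochondria. The iron regulatory proteins IRP1 (Aco1) and IRP2 (Ireb2) read the cytosolic iron: at low iron they bind iron responsive elements, short RNA hairpins, and protect the Tfrc mRNA from decay while they block translation of the ferritin mRNAs. Splenic and BM macrophages take most of their iron from engulfed red cells rather than from transferrin.

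The deposited values are FPKM, that is, reads adjusted for exon length and for the depth of the library, so levels can be compared between genes. Between 16085342 and 19518360 reads per library were recovered from them. With 1 library per condition the spread between mice is unknown, and every interval given here is a 95% interval that covers counting error only and compares libraries, not conditions. For the 10 genes the counting error of a level ran from 3.11% (Slc25a37) to 39.8% (Tfr2 in the MA9/FE leukemia cells, 27 reads). Ratios between 2 libraries were taken after TMM scaling. A gene was counted as different by the fold rule when its log2(FPKM + 1) differed by at least 1, a scale on which genes of low level change less.

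The macrophage libraries held RNA of other cells. Reads on 7 B cell markers made up 0.301% to 0.508% of all reads there, above the 0.128% to 0.263% on 15 macrophage markers. In the leukemia cells the B cell share was 0.00452% and 0.00473%, and the T cell share was 0.000358% in MA9 and 0.000297% in MA9/FE. T cell markers made up 0.0203% to 0.0276% and megakaryocyte markers 0.00131% to 0.00501% of macrophage reads, with the platelet gene Gp1bb at 0 in all 6 libraries. The erythroid and neutrophil lists differed between macrophages of leukemic and other mice. Reads on 18 erythroid markers (of 19 listed) were 0.0132% (WT) and 0.0224% (WT/FE) of the total in mice without leukemia, against 0.0521% (MA9) and 0.0592% (MA9/FE) in leukemic mice. Those on 12 neutrophil markers were 0.00263% and 0.00218% against 0.178% and 0.0887%, with Ly6g and Mmp8, made by neutrophils, at 0 in WT and WT/FE macrophages. Reads on 7 genes of the MLL-AF9 program were between 0.0272% and 0.0348% in the 4 macrophage libraries, against 0.123% and 0.132% in the leukemia cells. Hoxa9, a direct target of MLL-AF9, was between 0.119 and 0.791 FPKM in the macrophage libraries and at 40.6 and 41.0 FPKM in the leukemia cells. Macrophage markers differed with iron: all 15 were higher in WT/FE than in WT and in MA9/FE than in MA9 macrophages, 4 and 7 of them by the fold rule.

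**Figure D1:**
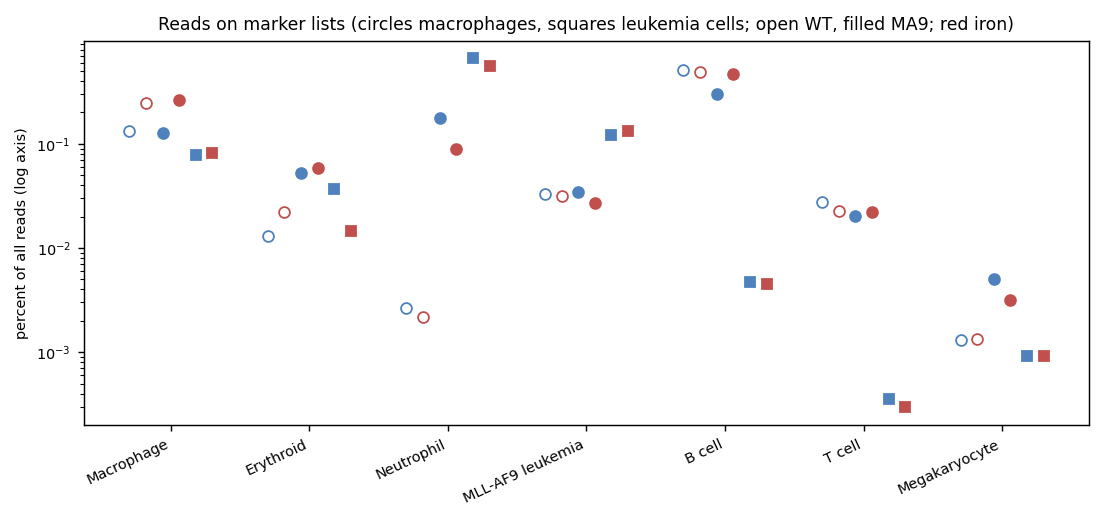
Share of all reads on 7 marker lists (vertical axis, percent, log scale) in the 6 libraries; circles are macrophages, squares leukemia cells, open symbols WT, filled symbols MA9, red with iron and blue without. The B cell list lies above the macrophage list in all 4 macrophage libraries, and the neutrophil and erythroid lists are higher in MA9 and MA9/FE than in WT and WT/FE macrophages.

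Tfrc, the transferrin receptor through which most cells take up iron (chromosome 16, 32608920 to 32632794, plus strand, GRCm38), carries in its 3′ UTR the hairpins that the IRPs bind. A search of the GENCODE M21 transcripts for the iron responsive element found 4 of them in Tfrc, with all 5 upper and all 5 lower base pairs formed in each (G with T counted as a pair). The element was searched on the transcript strand as a C followed by 5 bases of upper stem, the loop CAGTGN and the pairing bases. They are shown because iron acts on this mRNA through them, and the capitals mark the loop of 6 bases. They lie at chr16:32631220-32631246, chr16:32631599-32631625, chr16:32631664-32631690 and chr16:32631711-32631737.
Tfrc site 1: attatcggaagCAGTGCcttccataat
Tfrc site 2: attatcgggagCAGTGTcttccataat
Tfrc site 3: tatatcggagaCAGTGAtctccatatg
Tfrc site 4: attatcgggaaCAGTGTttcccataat

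Of 21877 genes with coding transcripts, 30 (0.137%) had a hairpin with all 5 upper and at least 4 lower pairs anywhere, 11 (0.0503%) had one in a 3′ UTR, and Tfrc was the gene with the most. Slc11a2 had 1 looser match in its 3′ UTR, at chr15:100395154-100395180 on the minus strand, with 4 of 5 upper pairs and 1 of 5 lower pairs, in 1 of its 6 coding transcripts. Such a looser match (at least 4 upper pairs) stood in the 3′ UTR of 4.04% of genes. The search allowed no unpaired base on the 3′ side of the stem, so it can undercount pairs. In the Slc11a2 sequence below, ccat pairs with atgg once the t before atgg is passed over. The share of genes with a match thus does not tell whether this one is an element. Slc11a1 had a looser match in its coding sequence, and 10.7% of genes had one somewhere in a transcript. None was found in the other 7 members. For comparison the 5′ UTR elements of the heavy and light ferritin chains Fth1 and Ftl1 and of the iron exporter Slc40a1 (ferroportin) are given, since their mRNAs are described further on. These lie at chr19:9982733-9982759 (plus strand), chr7:45459780-45459806 (minus strand) and chr1:45925466-45925492 (minus strand).
Slc11a2: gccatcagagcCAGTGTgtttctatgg
Fth1: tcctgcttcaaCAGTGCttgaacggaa
Ftl1: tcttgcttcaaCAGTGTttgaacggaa
Slc40a1: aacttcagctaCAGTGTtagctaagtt

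Tfrc was lower with iron in all 3 pairs of libraries. Its level was 20.3 FPKM in WT and 18.0 FPKM in WT/FE macrophages, 26.3 FPKM in MA9 and 17.1 FPKM in MA9/FE macrophages, and 21.5 FPKM in MA9 and 11.7 FPKM in MA9/FE leukemia cells. The MA9 macrophages were thus highest and the MA9/FE leukemia cells lowest, and the counting intervals of MA9 leukemia cells and WT macrophages overlapped, as did those of WT/FE and MA9/FE macrophages. The ratio with iron to without was 0.884 in WT macrophages (0.832 to 0.940), 0.665 in MA9 macrophages (0.626 to 0.707) and 0.544 in leukemia cells (0.508 to 0.583). Each interval lay below 1, and the intervals of the 3 pairs did not overlap each other. Whether the response to iron differed between the cells could not be tested, with 1 library for each. Among the genes measured in the leukemia cells 0.766% had a more negative difference than Tfrc, against 6.17% in MA9 and 20.4% in WT macrophages. No pair reached the fold rule, the differences being -0.17, -0.56 and -0.82 on the log2(FPKM + 1) scale.

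A linear model over all 6 libraries (limma, with cell group and iron as additive terms) gave Tfrc a log2 difference with iron of -0.53 (SE 0.146, Benjamini-Hochberg adjusted p = 0.992). It was the only member of the 10 with an unadjusted p under 0.05 for iron. Over all genes 611 of 17149 (3.56%) had such a p and 0 passed after adjustment, so Tfrc was not called. The model has 2 residual degrees of freedom and takes unequal iron responses between cells as error. In the leukemia cells the erythroid markers were also lower with iron, at 0.0369% against 0.0147% of reads, with 17 of 18 markers below 0 and 5 of them past the fold rule. In the macrophages the erythroid read share was higher with iron, but single markers went both ways, 10 of 18 being above 0 in WT macrophages (median log2 difference 0.09) and 7 of 18 in MA9 macrophages (median -0.17). Other lists differed with iron too. From MA9 to MA9/FE macrophages the B cell share went from 0.301% to 0.463% and the neutrophil share from 0.178% to 0.0887%. Erythroid cells have much Tfrc, and the part of the erythroid or other cells' RNA in the Tfrc differences was not tested.

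The 5 genes whose profile over the 6 libraries was most like that of Tfrc were also taken. Likeness was the root mean square difference of log2(FPKM + 1), each gene centred on its mean, among 10223 genes with at least 50 reads in every library, whose median distance was 0.445. They were Gbp7 (0.0845), Agrn (0.102), Tapbpl (0.176), Lrrc1 (0.191) and Gnas (0.209). Gbp7 was at 5.20 FPKM without and 5.31 FPKM with iron in WT macrophages, at 7.41 and 4.56 FPKM in MA9 macrophages and at 5.17 and 2.73 FPKM in leukemia cells. Like Tfrc it was highest in the MA9 macrophages and lowest in the MA9/FE leukemia cells. Unlike Tfrc it was not lower with iron in WT macrophages, nor were Tapbpl (27.8 and 28.9 FPKM) and Gnas (5.99 and 6.84 FPKM). Agrn (3.11 and 3.01 FPKM) and Lrrc1 (1.59 and 1.32 FPKM) were lower there.

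**Figure D2:**
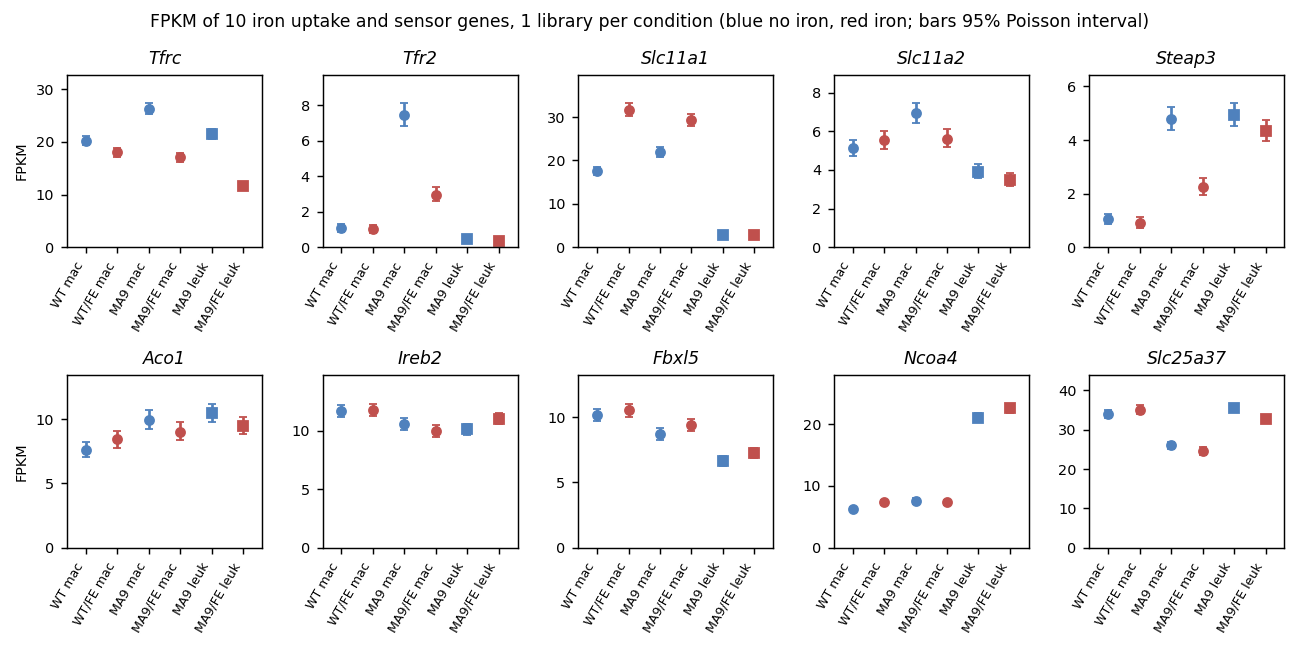
FPKM of the 10 genes (vertical axes, from 0) in each of the 6 libraries, with macrophages as circles, leukemia cells as squares, iron in red and no iron in blue, and 95% Poisson intervals as bars. Tfrc is lower in red than in blue in each pair, Tfr2 stands out in the MA9 macrophages, Steap3 is lowest in the WT and WT/FE macrophages, Slc11a1 is low and Ncoa4 high in both leukemia cell libraries.

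Tfr2, the receptor that serves as an iron sensor in hepatocytes and erythroid precursors (chromosome 5, 137569840 to 137587481, plus strand), varied most, 21.4-fold between its highest and lowest library. Its level without and with iron was 1.06 and 1.02 FPKM in WT macrophages, 7.45 and 2.97 FPKM in MA9 macrophages and 0.470 and 0.349 FPKM in leukemia cells, on 549 reads in the MA9 macrophages and 27 to 207 in the others. It was thus high in the macrophages of leukemic mice, and lower there with iron. The ratio of MA9 to WT macrophages was 7.07 (5.65 to 8.93) and that of MA9/FE to WT/FE macrophages 2.97 (2.26 to 3.92). The iron ratio in MA9 macrophages was 0.409 (0.347 to 0.480), whereas in WT macrophages (0.951, 0.690 to 1.31) and leukemia cells (0.742, 0.434 to 1.25) the intervals included 1. The WT interval lay wholly above that of the MA9 macrophages, while the wide interval of the leukemia cells, on 37 and 27 reads, overlapped it.

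Steap3, the endosomal ferrireductase of the transferrin cycle (chromosome 1, 120190757 to 120272705, minus strand), had a like pattern in the macrophages. It was at 1.05 FPKM without and 0.906 FPKM with iron in WT macrophages, and at 4.80 and 2.26 FPKM in MA9 macrophages. Unlike Tfr2, it was as high in the leukemia cells, at 4.92 FPKM (MA9) and 4.34 FPKM (MA9/FE), as in the MA9 macrophages, and these 3 levels had overlapping counting intervals. The ratio of MA9 to WT macrophages was 4.61 (3.76 to 5.70) and that of MA9/FE to WT/FE 2.53 (1.96 to 3.29). With iron the ratio was 0.484 (0.409 to 0.571) in MA9 macrophages, 0.860 (0.644 to 1.14) in WT macrophages and 0.881 (0.774 to 1.003) in leukemia cells. Only the first of these intervals lay below 1.

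Between MA9 and WT macrophages Tfr2 and Steap3 were the members past the fold rule, 2 of 10, where 4.70% of all genes were. Their log2 differences were 2.04 and 1.51, above those of 99.4% and 98.4% of genes. Between MA9/FE and WT/FE macrophages the same differences were 0.99 and 0.79, so 0 of 10 members passed, against 4.58% of all genes. Both genes are known to be expressed in erythroid precursors. In MA9 macrophages all 18 erythroid markers were above WT, 16 past the fold rule. Among them were the erythroid transcription factors Gata1 (2.21 FPKM in WT, 11.5 FPKM in MA9) and Klf1 (5.06 and 24.9 FPKM). In MA9/FE against MA9 macrophages 7 of the 18 were higher and 11 lower, 3 and 1 of them past the fold rule. The erythroid read share was 0.0521% in MA9 and 0.0592% in MA9/FE macrophages. With iron Gata1 and Klf1 were lower in MA9 macrophages, at 6.30 and 15.0 FPKM, while the hemoglobin gene Hbb-bs, whose near-identical copy makes its value uncertain, was at 83.4 FPKM without and 181 FPKM with iron. In WT/FE macrophages Gata1 was at 1.22 FPKM and Klf1 at 3.27 FPKM. The neutrophil list was at 0.00263% of reads in WT macrophages, against 0.178% and 0.0887% in leukemic mice without and with iron. The share of either list in the Tfr2 and Steap3 differences was not tested. Fewer cells of a type and less RNA per cell cannot be told apart in such bulk libraries.

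The model over 6 libraries gave MA9 against WT macrophages a log2 difference of 1.53 for Tfr2 (SE 0.288, adjusted p = 0.0760) and of 1.16 for Steap3 (SE 0.228, adjusted p = 0.0809), neither past the threshold. limma called 0 of the 10 members here, with 3 at an unadjusted p under 0.05 (Slc25a37 beside these), and 1.32% of all genes. With the 4 macrophage libraries alone, or with at least 50 reads asked for, it called both Tfr2 and Steap3. Either setting also called more genes over all genes than the main fit did. The fit with the macrophages alone has fewer residual degrees of freedom.

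Slc11a1 (NRAMP1, chromosome 1, 74375195 to 74386062, plus strand) moves divalent metals out of the phagosome of macrophages and other phagocytes. It was higher with iron in both pairs of macrophages, at 17.6 FPKM in WT and 31.7 FPKM in WT/FE, and at 21.9 FPKM in MA9 and 29.4 FPKM in MA9/FE macrophages. Both libraries with iron lay above both without. In the leukemia cells it was at 2.81 and 2.83 FPKM, without and with iron. The iron ratio was 1.80 (1.67 to 1.93) in WT macrophages, 1.38 (1.28 to 1.48) in MA9 macrophages and 1.01 (0.817 to 1.24) in leukemia cells. Its difference of 0.81 on the log2(FPKM + 1) scale in WT macrophages lay above that of 98.8% of genes, but under the fold rule. The macrophage markers were higher in the same libraries, at 0.132% and 0.128% of reads without iron and 0.247% and 0.263% with it, and their part in the Slc11a1 difference was not tested. The iron effect over 6 libraries was 0.41 (SE 0.169, limma adjusted p = 0.992).

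Slc11a2 (DMT1, chromosome 15, 100387898 to 100425072, minus strand), which carries iron out of the endosome in the transferrin cycle, stayed within narrower limits. Without and with iron it was at 5.11 and 5.55 FPKM in WT macrophages, 6.93 and 5.63 FPKM in MA9 macrophages and 3.92 and 3.49 FPKM in leukemia cells. The MA9 macrophages stood above the other 3 macrophage libraries, whose neighbouring levels overlapped in their counting intervals, and both leukemia cell libraries stood below. With iron the ratio was 1.08 (0.964 to 1.21) in WT macrophages, 0.832 (0.745 to 0.929) in MA9 macrophages and 0.891 (0.776 to 1.02) in leukemia cells. The deposited value sums its transcripts, so those with and without the 3′ UTR match cannot be told apart, and 6.33% of its exon bases are shared with Gm5475 on the opposite strand, from which reads counted without strand could not be separated.

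**Figure D3:**
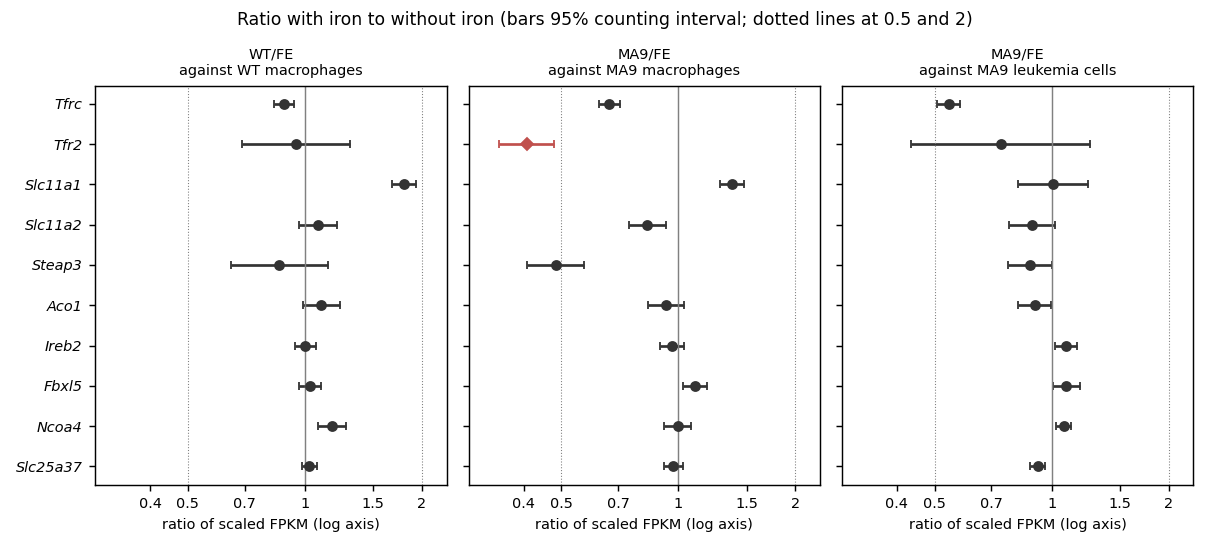
Ratio of scaled FPKM with iron to without iron (horizontal axes, log scale) for the 10 genes in WT macrophages, MA9 macrophages and leukemia cells, with 95% counting intervals as bars, dotted lines at ratios of 0.5 and 2, and red diamonds for genes past the fold rule. Tfrc lies below 1 in all 3 pairs, Slc11a1 above 1 in both macrophage pairs, and only Tfr2 in MA9 macrophages is marked.

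The iron regulatory proteins differed least of all members. Aco1 (IRP1, a cytosolic aconitase that binds RNA when it lacks its iron-sulfur cluster; chromosome 4, 40143081 to 40198338, plus strand) was at 7.60 FPKM without and 8.42 FPKM with iron in WT macrophages, 9.96 and 9.03 FPKM in MA9 macrophages and 10.5 and 9.48 FPKM in leukemia cells. Ireb2 (IRP2, chromosome 9, 54863789 to 54912530, plus strand), which is broken down when iron is plentiful, was at 11.7 and 11.8 FPKM in WT macrophages, 10.6 and 9.94 FPKM in MA9 macrophages and 10.1 and 11.03 FPKM in leukemia cells, each time without and with iron. Its 1.18-fold range was the smallest of the 10, and in the order of the levels of either gene every neighbouring pair of counting intervals overlapped. Levels further apart did not all overlap: Aco1 ran from 7.03 to 8.20 FPKM in WT macrophages and from 9.78 to 11.2 FPKM in MA9 leukemia cells. The ratio of MA9 to WT macrophages was 1.32 (1.19 to 1.47) for Aco1 and 0.913 (0.856 to 0.973) for Ireb2. That of MA9/FE to WT/FE macrophages was 1.09 (0.974 to 1.22) for Aco1 and 0.857 (0.801 to 0.918) for Ireb2. The iron ratios of Aco1 were 1.10 (0.988 to 1.23), 0.930 (0.836 to 1.03) and 0.905 (0.820 to 0.999) in WT macrophages, MA9 macrophages and leukemia cells. Those of Ireb2 were 1.003 (0.943 to 1.07), 0.965 (0.900 to 1.03) and 1.09 (1.02 to 1.16). Both proteins are controlled after transcription, and protein was not measured here.

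Fbxl5 (chromosome 5, 43744615 to 43821638, minus strand) is the iron-binding F-box protein that marks IRP2 for breakdown when iron is plentiful. It was at 10.2 and 10.5 FPKM in WT and WT/FE macrophages, 8.73 and 9.40 FPKM in those of MA9 and MA9/FE mice, and 6.66 and 7.26 FPKM in leukemia cells of these mice. The leukemia cells were thus below all macrophages, and the ratios with iron were 1.03 (0.965 to 1.10) in WT macrophages, 1.10 (1.03 to 1.19) in MA9 macrophages and 1.09 (1.01 to 1.18) in leukemia cells. The first of these intervals included 1. With leukemia the ratio was 0.865 (0.807 to 0.926) without iron and 0.905 (0.844 to 0.971) with it, but the latter difference turned sign, from -0.13 to 0.02 on the log2 scale, when the trend on exon length was removed.

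Ncoa4 (chromosome 14, 32159865 to 32179855, plus strand) carries ferritin to the lysosome, where its iron is set free. Its level without and with iron was 6.21 and 7.33 FPKM in WT macrophages, 7.57 and 7.35 FPKM in MA9 macrophages and 21.1 and 22.6 FPKM in leukemia cells. Both leukemia cell libraries lay far above all macrophages, by 2.72-fold without iron (2.55 to 2.91) and 3.02-fold with it (2.82 to 3.23). The iron ratios were 1.17 (1.08 to 1.28) in WT macrophages, 0.996 (0.917 to 1.08) in MA9 macrophages and 1.07 (1.03 to 1.12) in leukemia cells.

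Slc25a37 (mitoferrin 1, chromosome 14, 69241848 to 69285112, minus strand), which imports iron into mitochondria, had the highest level of the 10 genes in each library but the MA9 and MA9/FE macrophages. It was at 34.0 and 35.1 FPKM in WT and WT/FE macrophages, 26.0 and 24.6 FPKM in those of MA9 and MA9/FE mice, and 35.5 and 32.7 FPKM in leukemia cells of these mice. The macrophages of leukemic mice were lowest, at ratios to WT and WT/FE of 0.772 (0.735 to 0.811) and 0.712 (0.676 to 0.750). With iron the ratios were 1.03 (0.981 to 1.07), 0.970 (0.918 to 1.03) and 0.920 (0.878 to 0.963). Mitoferrin 1 is abundant in erythroid cells. It was lower in MA9 and MA9/FE than in WT and WT/FE macrophages, and the erythroid markers were higher in the former. The part of erythroid RNA in the level of Slc25a37 was not tested. Of its exon bases 6.33% are shared with Gm27223 and Gm31748 on the opposite strand.

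Leukemia cells had less Tfr2 and Slc11a1 and more Ncoa4 than macrophages from mice of the same condition. By the fold rule 3 of 10 members differed between MA9 leukemia cells and MA9 macrophages (20.0% of all genes did) and 3 of 10 between MA9/FE leukemia cells and MA9/FE macrophages (22.8%): Tfr2 and Slc11a1 lower and Ncoa4 higher, each time. The ratio of Tfr2 was 0.0617 (0.0430 to 0.0861) without iron and 0.115 (0.0741 to 0.173) with it. Slc11a1 had ratios of 0.125 (0.107 to 0.146) and 0.0943 (0.0807 to 0.110). The read shares of neutrophil markers (0.663% and 0.555%) and MLL-AF9 genes were higher in the leukemia cells, and that of macrophage markers was lower, at 0.0785% and 0.0810%. Single genes did not all follow. In each pair 11 of 12 neutrophil markers and 6 of 7 MLL-AF9 genes were higher and 1 of each list lower. Of the 15 macrophage markers 12 were lower without iron and 14 with it.

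In the model over 6 libraries limma called 5 of the 10 members in leukemia cells against MA9 macrophages, where it called 43.4% of all genes. Slc11a1 fell by 2.82 on the log2 scale (SE 0.207, adjusted p = 0.000461), Tfr2 fell by 2.06 (SE 0.288, adjusted p = 0.00382) and Slc11a2 fell by 0.65 (SE 0.155, adjusted p = 0.0221). Ncoa4 rose by 1.40 (SE 0.122, adjusted p = 0.000784) and Slc25a37 rose by 0.38 (SE 0.106, adjusted p = 0.0356). Fbxl5 was at -0.37 (adjusted p = 0.0512), Tfrc at -0.43 (adjusted p = 0.110) and Steap3 at 0.35 (adjusted p = 0.270), all from limma. Aco1 (0.04) and Ireb2 (0.01) lay near 0. The calls on Slc11a2 and Slc25a37 were lost when single libraries were left out. The adjusted p of Slc11a2 was 0.113 without the MA9 leukemia cells, 0.0533 without the MA9 macrophages and 0.154 without the MA9/FE leukemia cells. For Slc25a37 it ran from 0.0538 to 0.353 in the 5 fits that left out a library other than the MA9 macrophages.

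**Figure D4:**
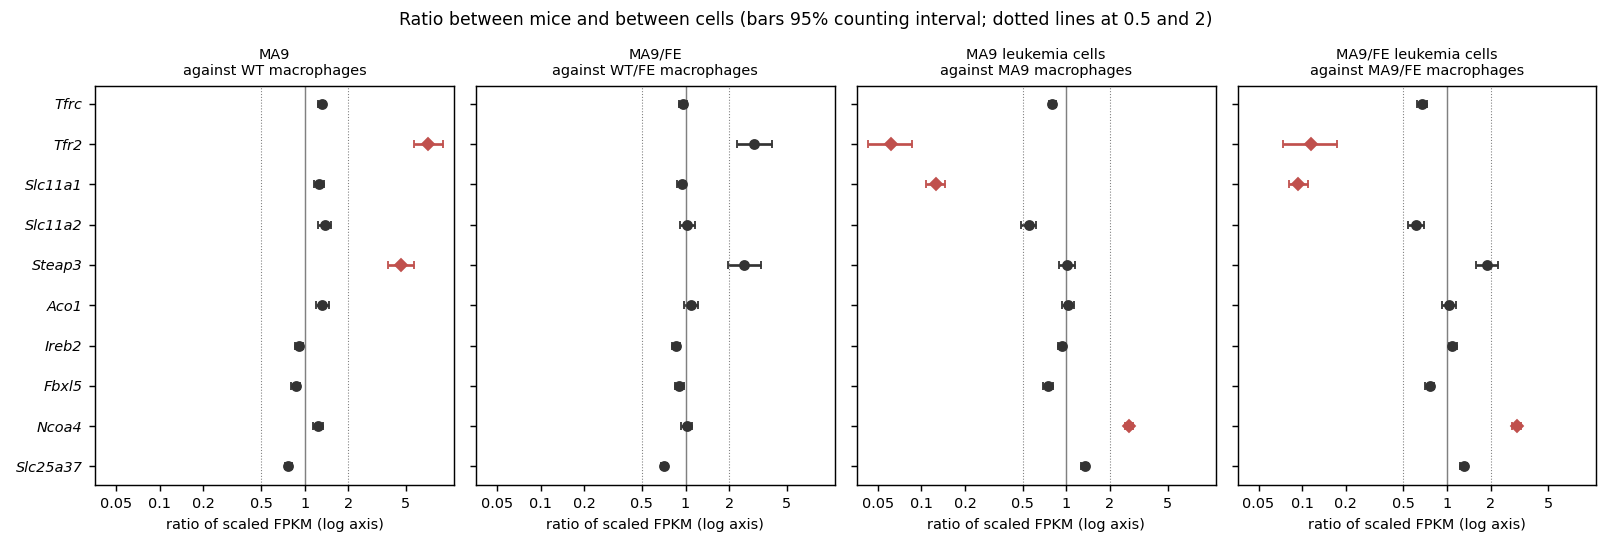
Ratio of scaled FPKM (horizontal axes, log scale) for the 10 genes between macrophages of leukemic and other mice (panels on the left) and between leukemia cells and macrophages (panels on the right), with 95% counting intervals as bars, dotted lines at ratios of 0.5 and 2, and red diamonds for genes past the fold rule, which is set on log2(FPKM + 1), so that low genes beyond a ratio of 2 may stay unmarked. Tfr2 and Steap3 lie to the right of the other genes in both macrophage panels, and Tfr2 and Slc11a1 to the left and Ncoa4 to the right in both leukemia cell panels.

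With 10 members, counts past the fold rule with iron are too small to be set apart from the shares over all genes. The fold rule was met by 0 of 10 in WT macrophages (1.27% of all genes), by 1 of 10 in MA9 macrophages (Tfr2, lower, where 2.46% of all genes passed) and by 0 of 10 in leukemia cells (0.863%). Differences of at least 0.5 in size on the same scale were seen for 1, 3 and 1 of 10, against 6.33%, 16.8% and 4.61% of all genes. The members' median log2 difference with iron was 0.04 in WT macrophages, -0.07 in MA9 macrophages and -0.12 in leukemia cells, beside -0.01, 0.01 and 0.00 over all genes. The 3 iron pairs and the cell comparisons share libraries, so their values are not independent.

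The partners of these genes were described with 6 lists of 106 entries, 101 distinct genes in the files beside the members. For iron limma called 0 genes in each list, with 0 to 2 genes of a list at an unadjusted p under 0.05. By the fold rule, of 11 measured genes for iron storage, export and heme breakdown 1 was higher in WT/FE macrophages and 2 in MA9/FE macrophages. The first was ferroportin (Slc40a1), whose 5′ UTR element is shown above, at 18.8 FPKM in WT and 40.8 FPKM in WT/FE macrophages, a ratio of 2.16 (2.07 to 2.25). In MA9 macrophages it went from 17.6 to 49.4 FPKM (2.88, 2.75 to 3.01), and in leukemia cells it was at 3.95 and 3.93 FPKM. Ferritin light chain (Ftl1) was at 398 FPKM in MA9 and 789 FPKM in MA9/FE macrophages (2.03, 1.98 to 2.08), and at 398 and 458 FPKM in WT and WT/FE macrophages. Thus ferroportin was higher in both macrophage libraries with iron, in which Tfrc was lower. The 15 macrophage markers were all higher in these libraries too, with median log2 differences of 0.95 (WT) and 0.96 (MA9), and their part in the ferroportin and Ftl1 differences was not tested. The list's median difference with iron was -0.06 in WT and 0.39 in MA9 macrophages.

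Among 12 measured mRNAs with an iron responsive element, 2 of the 13 listed being the members Tfrc and Slc11a2, 1 was higher with iron in WT macrophages and 2 in MA9 macrophages (ferroportin and Ftl1 again), and 1 was lower in leukemia cells. That was Alas2, the erythroid enzyme of heme synthesis, at 4.84 FPKM without and 1.84 FPKM with iron (0.381, 0.290 to 0.495). Ferritin heavy chain (Fth1) did not reach the fold rule in any iron pair, with 928 and 812 FPKM in WT and WT/FE, and 798 and 1206 FPKM in MA9 and MA9/FE macrophages. Among 12 measured genes of uptake without transferrin, 1 was lower with iron in MA9 macrophages. It was Lcn2, lipocalin 2 of neutrophil granules, at 47.8 and 22.6 FPKM, where the neutrophil markers were lower too. The lists of transferrin cycle partners, IRP control and ferritinophagy, and mitochondrial iron use had 0 genes past the fold rule in each iron pair.

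Between macrophages of leukemic and other mice limma called 3 genes of these lists, all higher. Over all genes it called 227 of 17149 (1.32%), 215 higher and 12 lower. Lcn2 had a log2 difference of 5.08 on the log2(FPKM + 1) scale over the 6 libraries (limma adjusted p = 0.00618). Its ratio of MA9 to WT macrophages alone, taken without a pseudocount, was 2468 (442 to 97525), with 1 read in WT. The neutrophil markers were higher in the same libraries, with medians of 4.37 and 3.61, and their part in the Lcn2 difference was not tested. Timd2, a ferritin receptor of the mouse (0.80, limma adjusted p = 0.0491), and the mitochondrial glutaredoxin Glrx5 (0.87, limma adjusted p = 0.0467) were the other genes called. The list of mitochondrial iron use had 0 of 24 genes past the fold rule in either pair, against 4.70% and 4.58% of all genes. Glrx5 was its 1 call by limma, with 11 of 24 at an unadjusted p under 0.05, where 20.7% of all genes were. The list's median log2 difference was 0.30 without and 0.43 with iron, beside 0.00 and 0.01 over all genes. The erythroid markers were higher in the same libraries, with medians of 1.72 and 1.34 and 18 of 18 above 0 in both pairs, and their part in the list's medians was not tested.

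Between leukemia cells and MA9 macrophages, limma called 0 higher and 6 lower of 11 storage, export and heme genes, where it called 43.4% of all genes. These estimates are over the pairs without and with iron together. Heme oxygenase 1 (Hmox1) fell by 3.22 on the log2 scale (adjusted p = 0.000165), and ferroportin fell by 2.66 (adjusted p = 0.00293). Hmox1 was at 104 FPKM in MA9 and 167 FPKM in MA9/FE macrophages, against 13.0 and 14.2 FPKM in MA9 and MA9/FE leukemia cells. Of 15 transferrin cycle partners 3 were called higher and 6 lower, among them the hemochromatosis gene Hfe, whose protein binds the transferrin receptor, which fell by 2.74 (limma adjusted p = 0.000143). Hfe was at 18.9 FPKM in MA9 and 26.0 FPKM in MA9/FE macrophages, against 2.39 and 2.68 FPKM in the leukemia cells. Of 21 genes of IRP control and ferritinophagy 4 were called higher and 4 lower. The higher ones held the autophagy receptor Tax1bp1 (1.30, limma adjusted p = 0.000843) and the autophagy scaffold Atg9a (1.30, limma adjusted p = 0.00528). The lower ones held Zc3h12a (-1.42, limma adjusted p = 0.000432), the largest call of the list, and Gabarapl2 (-0.86, limma adjusted p = 0.0244). The call counts were 3 higher and 1 lower of 13 for uptake without transferrin, 0 and 3 of 12 for mRNAs with an iron responsive element, and 5 and 3 of 24 for mitochondrial iron use. These shares are read against the 43.4% of all genes called, and the lists of uptake without transferrin, of mRNAs with the element, of IRP control and of mitochondrial iron use lay below it.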

How the data were processed

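The authors deposited FPKM per Ensembl gene for each of the 6 libraries. The labels' processing notes name Bowtie2 2.2.5, RSEM and mm10, with no role or order, and the methods name an Illumina NovaSeq and a service provider. The annotation, and whether counting used strand, are not given in the sources used here. Multiplied by GENCODE M21 exon length, 96.8% to 97.0% of values above 0 were whole multiples of 1 step (within 0.05 reads), which gave reads and depth. The reads of all 10 members were whole. Symbols and exon lengths came from GENCODE M21 (54495 of 54532 genes had a length).

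FPKM were scaled by TMM, coded by hand, for each pair, and log2(FPKM + 1) compared for genes with at least 10 reads in one library of the pair. Ratios have exact binomial intervals, marker shares Wilson intervals and levels Poisson intervals, all at 95%. limma 3.58.1 in R 4.3.3 was fitted to the 17149 genes that reached 10 reads in 2 or more libraries, with cell group and iron as terms, and a gene was called when its p-value after Benjamini-Hochberg adjustment was at most 0.05. Python 3.11.15, pandas 2.3.3, numpy 2.4.6 and scipy 1.17.1 were used. limma and the fold rule were also run on simulated libraries in which iron acted alike in all cells. Such libraries cannot tell how the model does where the iron responses of the cells differ. Nothing says whether a library was pooled from several mice.

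The members, lists and tests were chosen with earlier results of these data known. Genes named are all members, listed genes past the fold rule with iron, genes among the 3 largest differences of a list elsewhere, and the 5 genes most like Tfrc. Fth1 with iron and the single markers were named after their values were seen. Alternatives were other scalings, a pseudocount of 0.1, no minimum or 50 reads, removal of the trend on exon length, and for limma leaving out each library or the leukemia cells.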

Additional observations from a re-analysis of the deposited data

How the results depend on the processing

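With 1 library per condition there are no replicates to block on, and the iron effect in limma was fitted within cell group, which pairs the libraries with and without iron. Of 70 member differences in 7 comparisons, 60 kept 1 sign under all alternatives and 10 did not, the largest of these 0.13 in size (Fbxl5 in MA9/FE against WT/FE macrophages), and 470 of 489 single values moved by less than counting error. Member counts that moved were these: with a pseudocount of 0.1, 2 members (Tfr2 and Steap3) passed the fold rule in MA9/FE against MA9 and 2 in MA9/FE against WT/FE macrophages; limma called 2 members in MA9 against WT macrophages with 50 reads and 2 with the macrophages alone, 0 to 2 when a library was left out, and 3 to 5 in leukemia cells against MA9 macrophages when a library was left out. Tfr2 and Steap3 made up every call in MA9 against WT macrophages, and these calls depended on which library was left out. Without either leukemia cell library, this comparison rests on the same macrophage libraries as the fit with the macrophages alone. Those fits are therefore not separate checks, and fits with a library left out have fewer residual degrees of freedom than the main fit. Without either leukemia cell library, Slc11a2 and Slc25a37 lost their calls in leukemia cells. A group left with 1 library is assumed to vary like the others. Slc25a37 lost its call with no minimum of reads (adjusted p = 0.0531). Fbxl5 was called as well with a pseudocount of 0.1, with 50 reads and with the length trend removed. Over all genes, for iron in WT macrophages, MA9 macrophages and leukemia cells in turn, the fold rule counted 213, 406 and 133 genes, and 784, 1498 and 630 with a pseudocount of 0.1, 481, 731 and 375 with no minimum and 116, 234 and 60 with 50 reads. With the pseudocount the other comparisons went from 795 to 1980, 758 to 2081, 3407 to 5808 and 3832 to 6497 genes. Without the length trend, MA9/FE against MA9 macrophages had 128 genes higher and 299 lower in place of 198 and 208, and MA9/FE against WT/FE 330 and 404 in place of 486 and 272. limma's count over all genes was 227 in MA9 against WT macrophages, 66 to 827 with a library left out, 595 with 50 reads, 498 with macrophages alone and 1 with no minimum. In leukemia cells it was 7439, and 4346 to 8083 with a library left out. For iron it was 0, and 0 to 44 with a library left out and 4 with macrophages alone. The causes of these shifts were not tested. Depth limits Tfr2 in the leukemia cells most, and no depth replaces further mice.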
